A study of Mus musculus with 14 samples.

Results

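RNA of the 3 ZFP36 family genes (Zfp36, Zfp36l1 and Zfp36l2) and of 6 DUSP genes (Dusp1, Dusp2, Dusp4, Dusp5, Dusp6 and Dusp10) was described across 14 RNA-seq libraries of mouse B cells. These 9 genes, of 41053 gene rows in each of 2 deposited count tables, were chosen by gene name, with earlier measured values of these same libraries known. Which values guided that choice is not recorded, so the calls below describe these libraries and are no independent support for a pattern. All cells came from the spleen of C57BL/6 mice. Germinal center (GC) B cells, activated B cells that diversify their antibodies in lymphoid follicles, were sequenced as 4 libraries with the genotype Tet2 knock-out (KO, replicates 2 to 5) and 3 libraries with the genotype Tet2 wild-type (WT, replicates 1, 3 and 4). Lymphoma B cells were sequenced as 2 libraries with Tet2 knock-down by short hairpin RNA (shTet2, replicates 1 and 2) and 5 control libraries, labelled Tet2 wild-type (replicates 1 to 5). TET2 oxidises 5-methylcytosine in DNA, and the comparisons ask how its loss relates to RNA levels in normal and in malignant B cells. Not given in the sources used here are the purification of the cells, the deleted part of Tet2, the driver of the hairpin, the origin of the lymphoma and the age of the mice.

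ZFP36 proteins are zinc finger proteins that bind AU-rich elements in the 3′ untranslated region of short-lived messenger RNAs and recruit the enzymes that shorten the poly(A) tail. Zfp36 (tristetraprolin) is an early response gene, and Zfp36l1 and Zfp36l2 are its paralogs with roles in lymphocyte development and quiescence. DUSP proteins of the MAP kinase phosphatase class remove phosphate from both the tyrosine and the threonine of active MAP kinases. Dusp1, Dusp2, Dusp4 and Dusp5 encode inducible nuclear enzymes, Dusp6 encodes a cytoplasmic enzyme selective for ERK, and Dusp10 encodes an enzyme selective for p38 and JNK. Many of these genes are switched on by the same signals they then restrain, so their RNA is often read as a trace of recent receptor signalling.

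The AU-rich core TATTTAT is the site that ZFP36 proteins are known for, and it is shown here because some of the 9 genes carry it in their own 3′ untranslated region and others do not. In GENCODE vM21 transcripts (GRCm38, the transcript with the longest coding sequence of each gene, sense strand, overlapping matches counted), Zfp36, Zfp36l1, Zfp36l2 and Dusp1 held 3 matches each and Dusp2 held 1 match. Dusp4, Dusp5, Dusp6 and Dusp10 held 0 matches. Stretches of 27 bases around 1 site of each gene with a match follow, 5′ to 3′, with the core in capitals.
Zfp36: atgacgacttTATTTATtgtattaaga
Zfp36l1: actgttggatTATTTATtttagaaatt
Zfp36l2: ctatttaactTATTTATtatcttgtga
Dusp1: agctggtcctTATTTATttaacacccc
Dusp2: agcactttaTATTTATatagaacattg
The longer form TTATTTATT, which contains the core, was present in all of these except Dusp2. Of 21007 genes with a 3′ untranslated region, 25.5% held the core. Among genes whose region was within 25% of the same length, 3 or more matches were held by 1.17% for the length of Zfp36, 3.6% for Zfp36l1, 3.58% for Zfp36l2 and 1.19% for Dusp1. A match is a sequence description and not a measured binding site.

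Promoter sequence from RefSeq (GRCm38.p6) was matched for 7 of the 9 genes, and the 250 bases before the start were searched on both strands for the cAMP response element TGACGTCA, the AP-1 site TGANTCA and the CArG box, the site of serum response factor. Dusp1 held the cAMP response element, beginning 143 bases before its start, an element found in 1.55% of 32851 promoters. Zfp36 held 1 CArG box beginning 58 bases before its start, and Dusp5 held 2, beginning 82 and 72 bases before its start, whereas 1.47% of all promoters held any. Zfp36l1 held an AP-1 site, found in 6.75% of promoters, and Dusp2, Dusp6 and Dusp10 held none of the 3 motifs in this window. The 150 bases before the start are shown for Zfp36 and Dusp1, which differed most between the lymphoma groups, and for Dusp5, which differed most in the other direction between the cell sources. Motifs are in capitals; Zfp36 is from the minus strand of chr7:28379229-28379378, Dusp1 from the minus strand of chr17:26508473-26508622 and Dusp5 from the plus strand of chr19:53528995-53529144.
Zfp36: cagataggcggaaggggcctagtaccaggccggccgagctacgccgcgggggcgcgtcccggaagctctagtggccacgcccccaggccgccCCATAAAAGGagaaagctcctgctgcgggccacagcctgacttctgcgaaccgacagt
Dusp1: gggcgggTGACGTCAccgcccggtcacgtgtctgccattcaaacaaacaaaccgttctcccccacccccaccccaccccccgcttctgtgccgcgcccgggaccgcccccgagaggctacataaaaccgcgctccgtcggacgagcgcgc
Dusp5: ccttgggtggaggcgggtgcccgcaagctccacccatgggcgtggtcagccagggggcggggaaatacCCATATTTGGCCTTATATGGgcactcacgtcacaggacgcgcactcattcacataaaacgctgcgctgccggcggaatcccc
The 250 bases before the start held from 10 CpG dinucleotides in Zfp36l1 to 28 in Dusp1, against a median of 6 over all promoters. Methylation was not measured in these data.

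Total counts were 27191862 to 30434184 in the GC B-cell libraries, 6691167 to 18598386 in lymphoma controls and 9386084 to 14741588 with shTet2. A hand-written list of ribosomal and other structural RNA rows took 0.370% to 1.32% of the counts in GC B cells, 57.5% to 80.7% in control lymphoma cells and 45.0% to 54.04% in shTet2 cells, without overlap between the lymphoma groups. Outside those rows, the control libraries kept 1525792 to 6282040 counts. Tet2 stood at 7.79 to 9.53 CPM in KO and 7.53 to 8.95 CPM in WT libraries, which does not check the KO label because the gene count can include exons outside a deletion. It stood at 79.4 to 86.0 CPM in shTet2 and 89.0 to 105 CPM in control libraries. The summed level of 13 GC and mature B-cell markers was 7259 to 7713 CPM in GC B cells 3781 to 4192 CPM in control and 4273 to 4344 CPM in shTet2 lymphoma cells, with none of them at 0 in a whole group. Of 12 of these markers tested, Fas (1.29, edgeR adjusted p = 0.0148) and S1pr2 (2.73, adjusted p = 0.0297) were called higher with shTet2. EdgeR called 0 lower and left 10 not called, whereas DESeq2 called 4 higher and 1 lower. Without control replicates 1 and 2, 0 were called. Among those edgeR did not call, the proliferation marker Mki67 stood at 2.09 (edgeR adjusted p = 0.0642) and Cd79a at -0.48 (adjusted p = 0.0738). The part of these markers in the results on the 9 genes was not tested. The mean log2 CPM of 4 Y-linked genes was higher in all KO than in all WT libraries (4.57 to 4.73 against 3.74 to 4.01) and was listed at 0 in the lymphoma libraries. Levels are given as CPM (counts relative to effective library size), on 1 scale set over all 14 libraries by the trimmed mean of M-values (TMM). The labels do not say whether replicates are separate animals, so a p-value here reflects library-to-library spread, which may be technical. In bulk RNA, fewer cells of a type and less RNA per cell cannot be told apart.

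**Figure D1:**
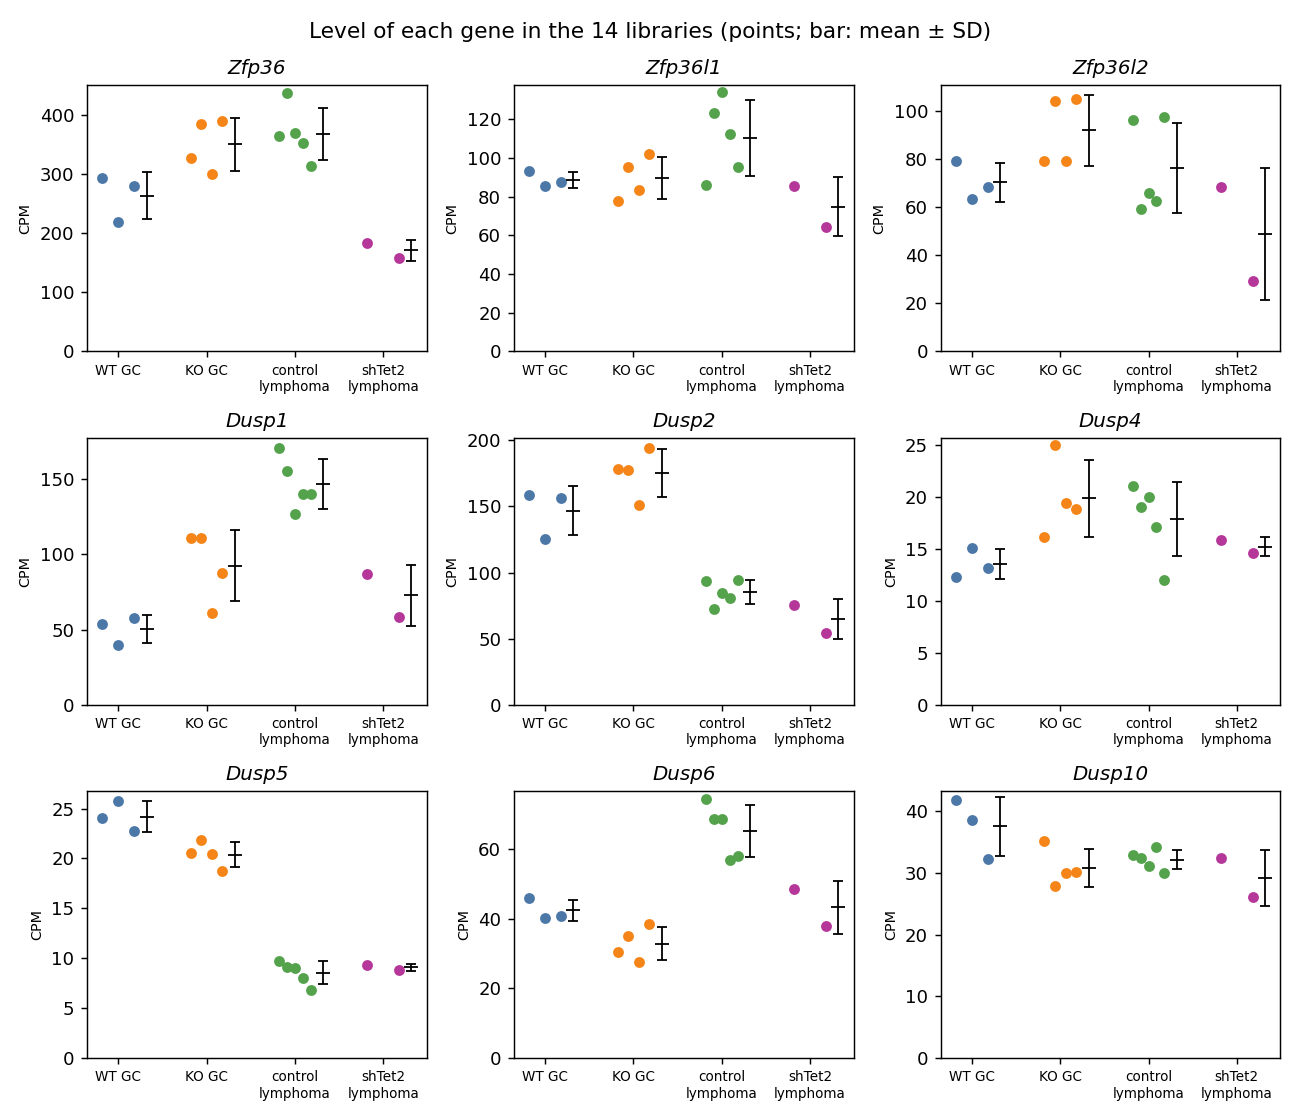
Level of each of the 9 genes (CPM, linear axis from 0) in every library, as points by group, with the group mean and SD as a bar beside them (n = 3 WT, 4 KO, 5 control and 2 shTet2). For Zfp36 and Dusp1 both shTet2 points lie below all 5 control points, while all 4 KO points lie above all 3 WT points.

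The plot of levels by library shows the pattern of Zfp36 and Dusp1. In the lymphoma cells Zfp36, Dusp1 and Dusp6 were lower with shTet2, by 2.18-, 2.04- and 1.52-fold. These 3 calls of 9 genes compare with 0.742% of 12797 genes tested that were lower and 1.84% that were higher (edgeR quasi-likelihood test, adjusted p under 0.05, an expected share of false calls of 5%). Of the 9 genes 0 were called higher, by edgeR or by DESeq2, and 5 had an unadjusted p under 0.05, as did 2447 of the 12797 genes tested. Of the 9, 8 had a negative log2 fold change, and their median was -0.58 against -0.00 over all genes tested. In the GC B cells the same test called Dusp4 higher and Dusp6 lower with the KO, 2 of 9 genes, where 1.92% of 13600 genes were called higher and 4.57% lower. DESeq2 called 3 of the 9 higher and 3 lower there, with 1248 genes called in all, and 7 of 9 had an unadjusted p under 0.05, as did 2700 of the 13600 genes. There 5 of 9 had a positive log2 fold change, with a median of 0.20 against 0.01 over all genes.

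Zfp36 (chr7:28376784-28379255, minus strand, 1792 exon bases) held 293, 219 and 280 CPM in WT replicates 1, 3 and 4. It held 328, 385, 300.0 and 391 CPM in KO replicates 2 to 5. All KO libraries were above all WT libraries, though the gap between KO replicate 4 and WT replicate 1 was small. The log2 fold change of 0.36 (SE 0.12) did not pass after Benjamini-Hochberg adjustment (edgeR adjusted p = 0.0929), whereas DESeq2 called it. When the Y-linked level, which separates KO from WT, was added as a covariate, it turned to -0.85. In the lymphoma cells Zfp36 held 366, 437, 370.5, 354 and 315 CPM in control replicates 1 to 5 and 184 and 158 CPM in the shTet2 replicates. The groups did not overlap, and the highest shTet2 library was well below the lowest control. The fall of 1.13 on the log2 scale (SE 0.13) passed the test (edgeR adjusted p = 0.00336), also in all 7 fits that left out 1 library. The call was lost with the structural RNA share as a covariate (-0.87, edgeR adjusted p = 0.9998) and with the replicate block (-1.26). It was also lost without the 2 shallowest control libraries, replicates 1 and 2 (-1.03, adjusted p = 0.0671). Each of these fits called few or none of all genes tested, so these losses are not particular to Zfp36. The structural RNA share also separates the shTet2 from the control libraries. Over 15 alternatives its adjusted p ranged from 1.50e-12 to 0.9998.

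Zfp36l1 (chr12:80107760-80113013, minus strand) held 93.5, 85.5 and 87.5 CPM in the WT libraries and 77.7, 95.3, 83.5 and 102 CPM in the KO libraries, which overlapped on both sides of WT. The log2 fold change was -0.04 (95% interval -0.25 to 0.17). Control lymphoma libraries held 86.1, 123, 134, 112 and 95.3 CPM, and the shTet2 libraries 85.5 and 64.3 CPM. Both shTet2 values were below every control value, but the upper one only just. The log2 fold change of -0.58 (SE 0.18, edgeR adjusted p = 0.130) did not pass the test, whereas DESeq2 (adjusted p = 0.0447) and edgeR in 1 model of all 4 groups (adjusted p = 0.0445) called it lower. Of the 2984 exon bases of Zfp36l1, 1672 are shared with Gm26669 on the other strand, and the counting command carried no strand option. Reads in the shared bases cannot be assigned to either gene here, and Gm26669 itself held 9 to 62 counts per library.

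Zfp36l2 (chr17:84183931-84187947, minus strand) had the largest coefficient of variation of the 9 genes in the lymphoma cells, 24.7% in control and 56.2% in shTet2 libraries. WT libraries held 79.0, 63.4 and 68.3 CPM and KO libraries 79.3, 104, 79.0 and 105 CPM. In the GC B cells the log2 fold change was 0.33 (SE 0.12, edgeR adjusted p = 0.126). Controls held 96.0, 59.2, 65.7, 62.6 and 97.2 CPM, and the 2 shTet2 libraries, at 68.2 and 29.4 CPM, differed from each other by more than the controls' SD of 18.8. The lymphoma difference of -0.66 had a 95% interval from -1.58 to 0.26 and did not pass the test (edgeR adjusted p = 0.409). It was -1.41 without shTet2 replicate 1 and -0.18 without shTet2 replicate 2.

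Dusp1 (chr17:26505590-26508519, minus strand), which encodes the phosphatase MKP-1 that acts on p38, JNK and ERK, held 53.9, 39.6 and 57.5 CPM in WT and 111, 111, 61.2 and 87.4 CPM in KO libraries. All KO values were above all WT values, with KO replicate 4 close to the WT range. The 1.77-fold difference had a wide error (log2 fold change 0.83, SE 0.24) and did not pass (edgeR adjusted p = 0.108), whereas DESeq2 called it. Control lymphoma libraries held 171, 156, 127, 140.4 and 140.3 CPM, against 87.3 and 58.3 CPM in the shTet2 libraries. The groups did not overlap, with means of 147 ± 16.8 CPM (SD, n = 5) and 72.8 ± 20.5 CPM (SD, n = 2). Dusp1 fell by 1.03 on the log2 scale (SE 0.16, edgeR adjusted p = 0.0120), and passed in all 7 fits without 1 library. The call was lost with the structural RNA share as a covariate (-0.93, edgeR adjusted p = 0.9998), with the replicate block (-1.22) and without control replicates 1 and 2 (-0.91, adjusted p = 0.123). As for Zfp36, these fits called few or none of all genes tested, so the losses are not particular to Dusp1. Over 15 alternatives its adjusted p ranged from 7.74e-07 to 0.9998.

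Dusp2 (chr2:127336159-127338376, plus strand), a nuclear phosphatase known from activated lymphocytes, held 159, 125 and 156 CPM in WT and 178, 178, 151 and 195 CPM in KO libraries, with overlap. The controls held 93.9, 72.3, 84.2, 80.8 and 94.4 CPM and the shTet2 libraries 75.5 and 53.97 CPM, also with overlap. Neither difference passed the test, at 0.20 (SE 0.11, edgeR adjusted p = 0.304) with the KO and -0.42 (SE 0.14, adjusted p = 0.132) with shTet2. Dusp4 (chr8:34807297-34819894, plus strand), a nuclear ERK and JNK phosphatase, held 12.3, 15.1 and 13.1 CPM in WT and 16.2, 25.01, 19.4 and 18.8 CPM in KO libraries. These groups did not overlap, and Dusp4 rose 1.42-fold (log2 fold change 0.51, SE 0.14, edgeR adjusted p = 0.0394). The call was kept in 2 of 7 fits without 1 library, those without KO replicate 2 or WT replicate 3, and the lowest value was 0.37 without KO replicate 3. In lymphoma cells Dusp4 held 21.1, 19.0, 20.01, 17.1 and 12.02 CPM in controls and 15.9 and 14.6 CPM with shTet2, inside the control range (-0.24, adjusted p = 0.539).

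Dusp5 (chr19:53529109-53542431, plus strand), a nuclear phosphatase specific for ERK, held 24.05, 25.8 and 22.7 CPM in WT and 20.5, 21.9, 20.4 and 18.7 CPM in KO libraries. The KO values were all lower, without overlap, but the log2 fold change of -0.30 (SE 0.09) did not pass (edgeR adjusted p = 0.0732). The lymphoma cells held far less, at 9.76, 9.13, 9.01, 7.96 and 6.81 CPM in controls and 9.31 and 8.82 CPM with shTet2. The shTet2 values lay within the control range, and the difference of 0.08 had a 95% interval of -0.34 to 0.50. The counts behind these lymphoma values were 25 to 114 per library, the lowest among the 9 genes.

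Dusp6 (chr10:99263231-99267488, plus strand) passed the test as lower in both cell sources. It held 46.0, 40.3 and 40.9 CPM in WT and 30.3, 35.1, 27.5 and 38.4 CPM in KO libraries, without overlap. It fell by 0.42 on the log2 scale (SE 0.11, edgeR adjusted p = 0.0312). Controls held 74.4, 68.7, 68.7, 56.9 and 58.1 CPM and the shTet2 libraries 48.7 and 37.9 CPM, also without overlap. The fall was 0.61 (SE 0.14, edgeR adjusted p = 0.0391). Each call was kept in only 2 of 7 fits that left out 1 library. In GC B cells those were the fits without KO replicate 3 or 5, and in lymphoma cells those without shTet2 replicate 1 or control replicate 5. Dusp10 (chr1:184013302-184075636, plus strand) held 41.8, 38.5 and 32.3 CPM in WT and 35.2, 27.9, 30.1 and 30.1 CPM in KO libraries, with overlap (-0.34, SE 0.10, edgeR adjusted p = 0.0688). In lymphoma cells it varied little, between 30.0 and 34.2 CPM in controls, with 32.4 and 26.0 CPM in the shTet2 libraries (-0.15, adjusted p = 0.520). Its span overlaps 1700056E22Rik on the other strand, with 0 shared exon bases.

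**Figure D2:**
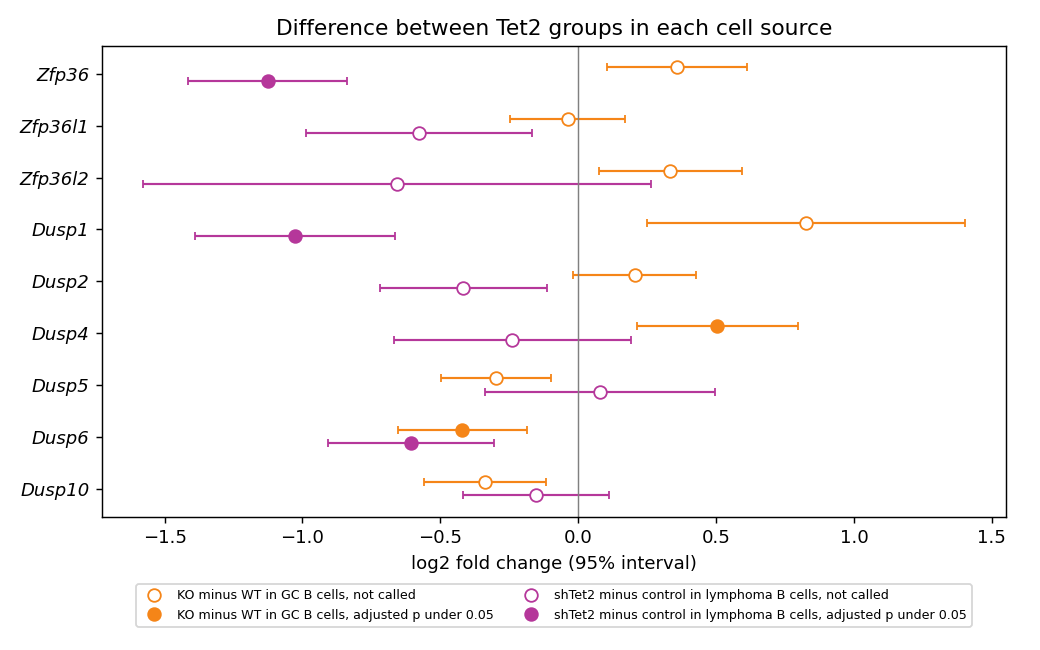
Log2 fold change of each gene, KO minus WT in GC B cells (orange) and shTet2 minus control in lymphoma B cells (purple), with 95% intervals; filled points passed the adjusted p threshold of 0.05. The 2 intervals of Zfp36 and of Dusp1 lie on opposite sides of 0, while those of Dusp6 both lie below 0.

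Whether the effects differed between the 2 cell sources was tested as the difference of effects in 1 model of all 14 libraries. Zfp36, Dusp1 and Dusp2 passed with a lower effect in lymphoma, 3 of 9 genes, where 1.61% of 15441 genes passed as lower and 3.39% as higher. The difference was -1.51 (SE 0.19, edgeR adjusted p = 0.000114) for Zfp36, whose call held in 21 of 22 alternative fits. The exception had the Y-linked level as covariate (-0.35, edgeR adjusted p = 1), a fit in which 0 genes were called. With the structural RNA share as a covariate the value was -1.27 (edgeR adjusted p = 0.0486). For Dusp1 it was -1.88 (SE 0.32, edgeR adjusted p = 0.00417), a call lost without shTet2 replicate 2 (-1.66, adjusted p = 0.0530), with the replicate block (-1.98, adjusted p = 0.241), with the structural RNA share (-1.79, adjusted p = 0.247) and with the Y-linked level (-1.53, adjusted p = 1). Its adjusted p ranged from 6.42e-08 to 1 over the 22 alternatives. For Dusp2 it was -0.65 (SE 0.19, edgeR adjusted p = 0.0469), a call lost in 15 of 22 alternatives, and the value turned to 0.16 with the Y-linked level. The other 6 genes did not pass, with differences from -1.02 for Zfp36l2 (adjusted p = 0.179) to 0.35 for Dusp5 (adjusted p = 0.306). For Dusp6 the difference was -0.22 with a 95% interval of -0.60 to 0.17, which does not show that its effects were alike. The plot of log2 fold changes sets the effects of each gene side by side.

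In the same lymphoma comparison, the 4 genes with 3 core matches in the 3′ untranslated region had log2 fold changes of -1.13 (Zfp36), -0.58 (Zfp36l1), -0.66 (Zfp36l2) and -1.03 (Dusp1). Dusp2, with 1 match, stood at -0.42. The 4 genes with no match stood at -0.24 (Dusp4), 0.08 (Dusp5), -0.61 (Dusp6) and -0.15 (Dusp10). Dusp6 lay among the genes with matches. In GC B cells, in the same order, the genes with 3 matches stood at 0.36, -0.04, 0.33 and 0.83, and Dusp2 at 0.20. The genes with no match stood there at 0.51, -0.30, -0.42 and -0.34. No test was made of these groups of 4 or fewer genes in either comparison.

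**Figure D3:**
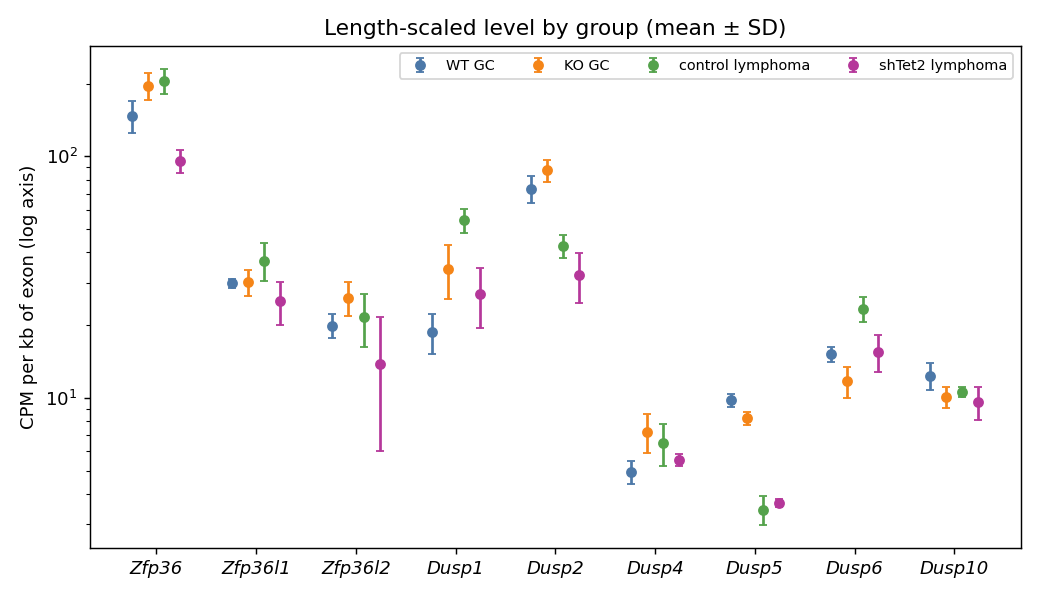
Level per kilobase of exon (CPM per kb, log axis) of each gene in the 4 groups, as mean and SD (n = 3 WT, 4 KO, 5 control and 2 shTet2). Zfp36 is the highest of the 9 genes in every group, and Dusp5 drops from 9.78 in WT GC B cells to 3.45 in control lymphoma cells.

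Levels of different genes were compared per kilobase of exon, as plotted by group. Zfp36 was the highest of the 9 in every group, at 147 ± 22.1 CPM per kb in WT, 196 ± 24.7 in KO, 206 ± 24.7 in control lymphoma and 95.5 ± 10.2 in shTet2 libraries (SD). In WT GC B cells Dusp2 followed at 73.3, then Zfp36l1 at 29.8, Zfp36l2 at 19.9, Dusp1 at 18.7, Dusp6 at 15.2, Dusp10 at 12.3, Dusp5 at 9.78 and Dusp4 at 4.93 CPM per kb. In that order the ranges of Zfp36l2 and Dusp1 overlapped, as did those of Dusp1 and Dusp6. In control lymphoma cells Dusp1 stood next to Zfp36 at 54.5 CPM per kb, followed by Dusp2 at 42.5 and Zfp36l1 at 36.9, and the ranges of these neighbours overlapped. Dusp6 at 23.4 and Zfp36l2 at 21.6 overlapped too, and Dusp10 at 10.6, Dusp4 at 6.51 and Dusp5 at 3.45 CPM per kb closed the order without overlap. Over its 1312 unshared exon bases alone, as an upper bound, Zfp36l1 would stand at 67.7 CPM per kb in WT and 84.0 in control lymphoma cells. By mean, the bound in WT stays between Dusp2 at 73.3 and Zfp36l2 at 19.9. In control lymphoma cells it lies above Dusp1 at 54.5 and Dusp2 at 42.5, so the place of Zfp36l1 there is uncertain.

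Control lymphoma cells and WT GC B cells differed at most genes: 40.2% of 15441 genes were called higher and 40.4% lower, so the 7 of 9 called here (5 higher, 2 lower) are near the background. This comparison shares its libraries with those above, and cell source and library set cannot be told apart in it. Among the 9 genes Dusp1 had the largest rise, 2.91-fold (log2 fold change 1.54, SE 0.21, edgeR adjusted p = 1.08e-05), and Dusp5 the largest fall, 2.86-fold (-1.52, SE 0.12, adjusted p = 2.52e-10). Dusp6 (0.62), Zfp36 (0.48), Dusp4 (0.39) and Zfp36l1 (0.31) were called higher and Dusp2 (-0.78) lower. Zfp36l2 (0.12) and Dusp10 (-0.23) did not pass. The call was lost for Dusp4 in 9 of 19 alternatives (highest adjusted p 0.105, without a filter) and for Zfp36l1 in 7 of 19 (highest 0.174, without a filter).

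For each gene, the nearest other gene was taken as the one with the smallest root mean square difference of mean-centred log2 CPM over the 14 libraries. Dusp1 lay nearest to Fos, an AP-1 gene, at 0.177 log2 units, and Zfp36 nearest to Nr4a1, an orphan nuclear receptor gene, at 0.215. Dusp6 lay nearest to Ier5, an immediate early gene, at 0.136. Fos held 174 ± 30.3 CPM in WT, 282 ± 74.1 in KO, 503 ± 72.7 in control and 251 ± 28.3 in shTet2 libraries (SD, n = 3, 4, 5 and 2). Dusp2 lay nearest to Neurl3 (0.145), Dusp5 to Carhsp1 (0.101), Dusp10 to Dync1i2 (0.120), Zfp36l1 to Casz1 (0.0799), Dusp4 to Zfp335 (0.214) and Zfp36l2 to Arl8a (0.268). For Dusp4, Zfp36l2, Dusp10 and Dusp2 the next genes were about as near (0.215 for Rfx5, 0.273 for Susd1, 0.121 for Swap70 and 0.152 for Jakmip1). For Zfp36 the next gene, Midn, lay at 0.235. The root mean square deviation of a gene from its own mean ran from 0.169 for Dusp10 to 0.685 for Dusp5, with 0.296 for Dusp4. The distances of Dusp10 and Dusp4 are therefore large beside their own spread. Because each gene's mean was removed, these distances describe likeness of the pattern over the 14 libraries and not of the level.

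**Figure D4:**
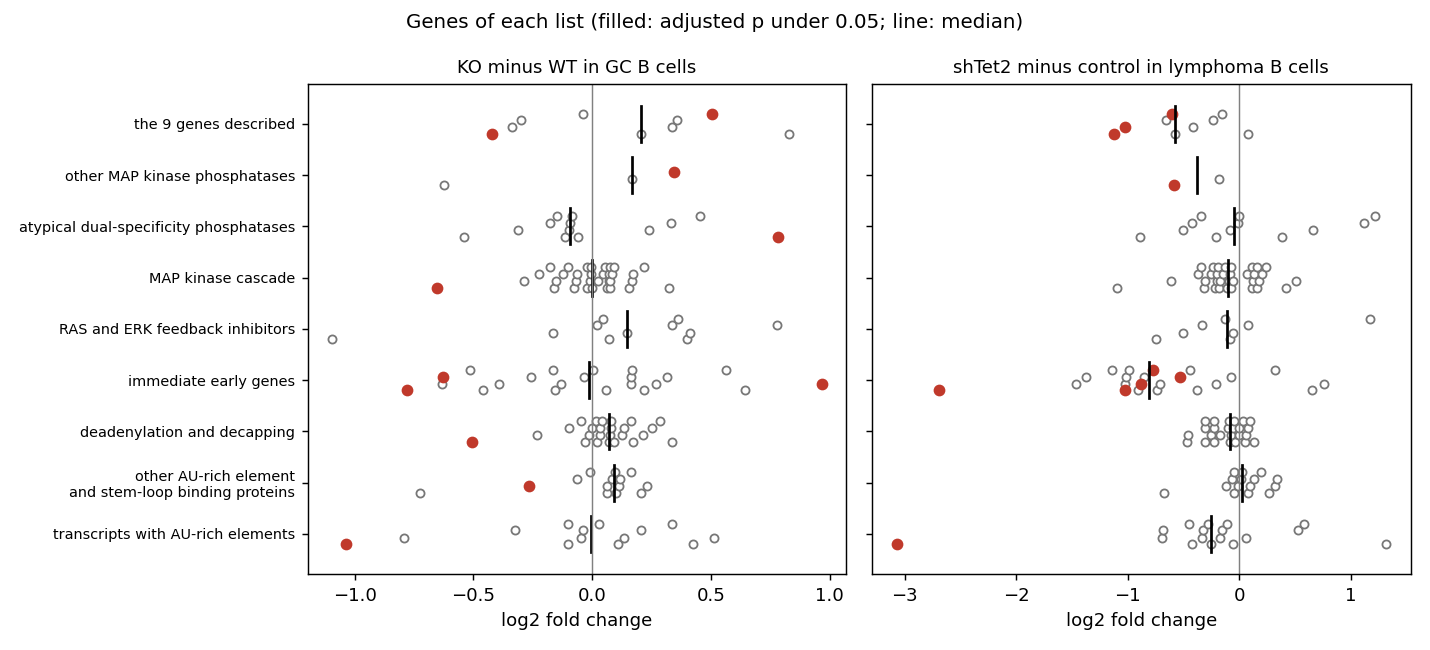
Log2 fold changes of the 9 genes and of the tested genes of 8 related lists, KO minus WT in GC B cells (left) and shTet2 minus control in lymphoma B cells (right); filled points passed the adjusted p threshold of 0.05, and the black line is the median. The immediate early genes have a median of -0.81 on the right and -0.02 on the left.

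The related gene lists are plotted by comparison beside the 9 genes. Of 22 tested immediate early genes, the first genes switched on by receptor signals, 5 were lower with shTet2 in lymphoma cells and 0 higher, with a median of -0.81 against -0.00 over all genes tested (DESeq2 called 12 lower and 0 higher). They were Atf3 (-2.69, edgeR adjusted p = 0.0120), Fos (-1.02, adjusted p = 0.00800), Nr4a1 (-0.88, adjusted p = 0.0383), Klf6 (-0.77, adjusted p = 0.0172) and Ier5 (-0.54, adjusted p = 0.0254). In GC B cells 22 of the list were tested, with 1 higher and 2 lower and a median of -0.02. Ppp1r15a, a stress-induced phosphatase regulator, rose to 148 ± 29.2 from 73.0 ± 14.7 CPM (0.97, SE 0.20, edgeR adjusted p = 0.0251). Egr2 (-0.78) and Egr1 (-0.63), zinc finger transcription factor genes, fell. Without control replicates 1 and 2, 0 genes of the list were called in lymphoma cells. The structural RNA share was also lower in both shTet2 libraries than in all 5 controls, and its part in the list's change was not tested.

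Among the other MAP kinase phosphatases, Dusp16, which acts on JNK and p38, was called in both comparisons in opposite directions. It held 28.9 ± 1.29 CPM in WT and 38.0 ± 1.68 in KO libraries (0.35, SE 0.08, edgeR adjusted p = 0.0191). It held 63.3 ± 7.47 CPM in control and 42.6 ± 1.72 in shTet2 libraries (-0.59, SE 0.12, edgeR adjusted p = 0.0297), a call lost without control replicates 1 and 2. The difference of these effects passed the test (-0.96, SE 0.15, edgeR adjusted p = 0.000651). Dusp7 did not pass in either comparison, and Dusp9 was tested in GC B cells only and did not pass. Of 13 and 12 tested atypical dual-specificity phosphatases, edgeR called 1, Dusp3 in GC B cells (0.78, edgeR adjusted p = 0.0289). In GC B cells 4 had an unadjusted p under 0.05, and DESeq2 called 2 higher and 0 lower. In lymphoma cells 5 had an unadjusted p under 0.05, and DESeq2 called 0 higher and 1 lower.

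Of 33 tested genes of the MAP kinase cascade 1 was lower in GC B cells, the scaffold gene Ksr1 (-0.65, edgeR adjusted p = 0.00270), and edgeR called 0 of 34 in lymphoma cells (7 with an unadjusted p under 0.05, and 2 called by DESeq2). Of the RAS and ERK feedback inhibitors edgeR called 0 of 11 in GC B cells (2 under an unadjusted 0.05, 1 called by DESeq2) and 0 of 8 in lymphoma cells (2 and 0). Rasa2 in GC B cells (0.36, edgeR adjusted p = 0.0610) had the smallest p among them. Of 25 deadenylation and decapping genes, through which ZFP36 proteins act, Tnks1bp1 was lower in GC B cells (-0.51, edgeR adjusted p = 0.0273) and edgeR called 0 in lymphoma cells (5 under an unadjusted 0.05, 1 called by DESeq2). Of 14 other AU-rich element and stem-loop binding protein genes, Zc3h12d was lower in GC B cells (-0.27, edgeR adjusted p = 0.0454), and edgeR called 0 of 15 in lymphoma cells (4 and 1). Of known transcripts with AU-rich elements, Il10 was lower among 14 in GC B cells (-1.04, at a KO mean of 1.24 CPM) and Vegfa lower among 17 in lymphoma cells (-3.07, at a shTet2 mean of 0.146 CPM). Of these 14, 4 had an unadjusted p under 0.05, and DESeq2 called 1 higher and 2 lower. Of the 17 in lymphoma cells, 6 had an unadjusted p under 0.05, and DESeq2 called 0 higher and 3 lower.

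Markers of other cells were read beside these results. In GC B cells 10 of 14 tested myeloid markers were lower in the KO (median -1.22), and the summed level of 25 such markers was 97.4 to 109 CPM in KO against 117 to 161 CPM in WT libraries, with Mpo, Elane and Ly6g at 0 in WT. The largest part of these sums was Cst3, at a mean of 72.2 CPM in KO and 71.8 CPM in WT libraries (-0.04, not called). In lymphoma cells edgeR called 0 of 17 tested myeloid markers (3 under an unadjusted 0.05, 1 called by DESeq2), and their sum was 116 to 177 CPM in control and 121 to 281 CPM in shTet2 libraries, with Elane at 0 in both groups. Of 5 plasma cell markers 2 were higher with shTet2, Prdm1 (1.21) and Xbp1 (0.81), and none was at 0. The other 3 were not called, Igj (1.56, edgeR adjusted p = 0.182), Sdc1 (0.57, adjusted p = 0.561) and Irf4 (-0.25, adjusted p = 0.188). The 5 summed to 329 to 469 CPM in control and 457 to 760 CPM in shTet2 libraries. Within these sums Igj held 96.1 ± 34.5 CPM in control and 289 ± 209 CPM in shTet2 libraries (SD). Without control replicates 1 and 2, 0 plasma cell markers were called. T cell markers summed to 79.2 to 95.9 CPM in KO and 108 to 135 CPM in WT libraries. Most of these sums was Lck, at a mean of 87.0 CPM in KO and 122 CPM in WT libraries (-0.54, called lower). Thy1 was called higher (2.51), at means of 1.51 CPM in KO and 0.257 CPM in WT libraries. The other 4 of 6 tested were not called, and none of 12 was at 0 in a whole group. Summed levels of 8 stromal markers were 160.0 to 183 CPM in control and 109 to 151 CPM in shTet2 libraries. Most of these sums was Pecam1, at a mean of 170 CPM in control and 129 CPM in shTet2 libraries. Pecam1 was the 1 marker tested (-0.42, edgeR adjusted p = 0.101) and did not pass. Pdgfra was at 0 in both groups, and Col1a2 and Cxcl12 were at 0 with shTet2. The part of these differences in the levels of the 9 genes was not tested.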

How the data were processed

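Per the labels' protocols, RNA was extracted with Trizol and an RNeasy kit and made into TruSeq stranded mRNA libraries. The submitters' processing notes name STAR 2.3.0e as aligner and GRCm38.p3 as genome build. The deposited values are whole, unnormalised counts per gene name from featureCounts 1.5.1 over GENCODE vM3 exons, run with no strand or paired-end option, per the file headers. Libraries were mapped to groups by their titles.

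Counts were tested with edgeR 4.0.16 (R 4.3.3; TMM scaling, filterByExpr by group, robust quasi-likelihood fit, Benjamini-Hochberg adjustment over all genes tested, adjusted p under 0.05). KO against WT and shTet2 against control were fitted on their own libraries, and the difference of effects and control lymphoma against WT on all 14. Printed CPM use TMM factors over all 14 libraries; log2 CPM used a prior count of 2. The tests were checked on simulated data. Replicate libraries differed by more than counting error in every pair. Alternatives were median-of-ratios scaling, removal of structural RNA rows (198 rows; 1 name was added after seeing the tables), DESeq2 1.42.0, no filter, 1 model of 4 groups, a replicate block, a covariate and leaving out each library. The 9 genes and the gene lists (238 of 242 names found) were chosen with earlier results of these data known. Named genes were the 9 and up to 3 called genes of each list, otherwise the 2 with the lowest p. List genes needed a mean of at least 2 CPM. The nearest gene of each of the 9 was also named, at a mean of at least 10 CPM. Il10, Vegfa, Klf6, Dusp7, Dusp9, Rfx5, Susd1, Swap70, Mki67 and Thy1 fall outside this rule and were named after their values were seen. The same holds for Cd79a, Igj, Sdc1, Irf4, Cst3, Jakmip1 and Midn where they are given.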

Additional observations from a re-analysis of the deposited data

Results flagged for a closer look

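The effects in lymphoma and in GC B cells differed by the test of the difference itself for 3 of the 9 genes. Zfp36 differed by -1.51 on the log2 scale (edgeR adjusted p = 0.000114), with both shTet2 libraries below all 5 controls and all 4 KO libraries above all 3 WT libraries. When the Y-linked level was added to the fit, the difference was -0.35 and did not pass, and the GC effect of Zfp36 turned to -0.85. That level separates KO from WT, so such a fit cannot tell its part from that of the genotype. Dusp1 differed by -1.88 (edgeR adjusted p = 0.00417), with the same arrangement of libraries. Dusp2 differed by -0.65 (edgeR adjusted p = 0.0469), with overlapping groups in each cell source, and turned to 0.16 with that covariate. A library far from the others was searched for gene by gene in the KO and control groups, 18 searches in all, and 0 were found. The WT group of 3 and the shTet2 group of 2 libraries were too small and were not searched.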

How the results depend on the processing

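In GC B cells 883 genes were called, and 1248 with DESeq2, 1365 without a filter, 570 with a replicate block and 3 with the level of Y-linked genes as covariate. Of the 9 genes 2 were called, and 6 with DESeq2 (Zfp36, Dusp1 and Dusp4 higher, Dusp5, Dusp6 and Dusp10 lower), 5 without a filter, 1 with the block, 0 with the covariate and 0 to 2 when 1 library was left out. The Y-linked level separates KO from WT, and with it the log2 fold changes turned to -0.85 for Zfp36, -0.78 for Zfp36l2, -0.65 for Dusp2 and 0.0690 for Dusp5. Zfp36l1, near 0, turned to 0.0131 in 1 model of 4 groups, and ranged from -0.108 to 0.0265 when 1 library was left out (above 0 without KO replicate 2 or WT replicate 1). In lymphoma cells 330 genes were called, and 583 with DESeq2, 782 without a filter, 840 in 1 model of 4 groups, 4 with the block, 0 with the structural RNA share as a covariate, 5 without both shallowest controls (added after seeing the library totals), and 100 to 2481 when 1 library was left out (100 without control replicate 3, 2481 without shTet2 replicate 1). Of the 9, 3 were called, 0 under the block, the covariate or without both shallowest controls, and 2 to 4 when 1 library was left out. Dusp5 turned to -0.0894 with the block. For the difference of effects 771 genes were called, 256 with the block within each table, 428 without both shallowest controls, 13 with the structural RNA share, 0 with the Y-linked level (these 3 added after seeing the data) and 283 to 2001 when 1 library was left out. Of the 9, 3 were called, 1 with the structural RNA share, 0 with the Y-linked level and 1 to 5 when 1 library was left out, the extremes being without shTet2 replicates 2 and 1. With the Y-linked level the difference turned to 0.144 for Zfp36l1, 0.0462 for Zfp36l2, 0.160 for Dusp2, -0.0581 for Dusp5, 0.477 for Dusp6 and -0.0704 for Dusp10. Leaving out 1 library gave Dusp10 from -0.0214 (without shTet2 replicate 1) to 0.266, and in control lymphoma against WT gave Zfp36l2 from -0.00299 (without control replicate 5) to 0.237. The cause of these changes was not tested. Compared groups share 2 replicate numbers, whose deviations correlated at -0.04 to 0.03, so the numbers were not taken as pairing. Counts of 25 to 114 limit Dusp5 in lymphoma cells.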
